A study of Mus musculus with 3 samples.

Results

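Nucleic acid sensors are the proteins by which a cell detects RNA or DNA of viral origin, or its own when misplaced. The 6 sensor genes described here are Tlr7, Ddx58, Ifih1, Dhx58, Zbp1 and Eif2ak2. They were taken by name from a deposited count table, where all 6 had a row among 25638 gene names. The table gives reads per gene from RNA-seq of mouse splenic CD8+ T cells, with 1 library each of effector memory, central memory and naive cells. Per the labels, the mice of all 3 groups were wild type and untreated. The sources used here do not give the age, strain or number of mice, the sorting markers, or whether animals were pooled. Naive T cells have not yet met their antigen. Central memory cells have met it and can still home to lymph nodes, whereas effector memory cells patrol tissues.

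TLR7 sits in the endosome, where it binds single-stranded RNA and signals through the adaptor MyD88. The RIG-I-like receptors are RNA helicases of the cytosol. RIG-I (Ddx58) and MDA5 (Ifih1) bind double-stranded RNA and signal through the mitochondrial adaptor MAVS, and LGP2 (Dhx58), which lacks their signalling domains, modulates them. ZBP1 binds nucleic acid in the Z form and can start necroptosis through RIPK3 and MLKL. PKR (Eif2ak2) is a kinase that is switched on by double-stranded RNA and stops translation by phosphorylating eIF2alpha. Most of these sensors are known to be encoded by interferon-induced genes.

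Interferon acts on such genes through the interferon-stimulated response element, of which the core GAAANNGAA was searched on both strands. Promoter windows of RefSeq (build GRCm38.p6), from 250 bases before to 50 after the annotated start, were matched by symbol for 3 of the 6 genes: Ddx58, Ifih1 and Eif2ak2. All 3 held the core, as did 9.76% of the 27025 genes with a window. The sites are shown because the core is the sequence feature these 3 genes share. Each is given 5′ to 3′ on the strand of the gene (minus in all 3), with the core, or its reverse complement, in capitals. The Ddx58 site lies at chr4:40239803-40239832 and the Eif2ak2 site at chr17:78882532-78882561. The Ifih1 sites lie at chr2:62646206-62646235 after the start and chr2:62646348-62646377 before it.
Ddx58 site: ctgaggcagtTTCGATTTCctatggccagc
Ifih1 site after the start: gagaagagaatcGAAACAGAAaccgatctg
Ifih1 site before the start: agaattcgcgTTCCCTTTCctgtttctcac
Eif2ak2 site: ccgccggGAAAACGAAACAGAAgagaaccg

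In Eif2ak2 a pair of overlapping cores began 19 and 25 bases after the start. The core of Ddx58 began 4 bases after it, and those of Ifih1 began 33 bases after and 112 bases before it. A longer form, with a further A at the end of the core, was also found in all 3, against 3.99% of all genes with a window. The STAT site TTCNNNGAA was found only in the window of Eif2ak2, 178 bases before the start, and in 9.55% of all genes. Among 94 partner genes of the sensors that had a window, 18 (19.1%) held the interferon core. A match describes letters in a window and does not show that a factor bound there.

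Totals were 33087462 counts for effector memory, 35846315 for central memory and 26876909 for naive. With 1 library a group no difference has a replicate check, no test was made, and each comparison is between single libraries. Levels are CPM, counts divided by effective library size and scaled to 1e+06, and a count of 0 would allow up to 0.108 CPM (3 counts). Intervals and this floor cover counting error only. All 8 CD8 T cell markers had counts in every library, with Cd3e at 335, 418 and 395 CPM and Cd8a at 408, 1063 and 1868 CPM in effector memory, central memory and naive. Cd8b1 stood at 276, 540 and 1055 CPM in the same order. Of 4 CD4 T cell markers, Zbtb7b stood at 93.6, 37.4 and 1.33 CPM and Cd4 at 0.281, 0.251 and 2.12 CPM. Foxp3 stood at 0.156, 1.70 and 3.95 CPM, and Cd40lg at 0.281, 0.363 and 0.323 CPM. Cd44, a marker of antigen-experienced cells, stood at 113, 45.8 and 2.95 CPM. The libraries differed in other features too. Mki67, a marker of dividing cells, stood at 1819 and 301 CPM in effector and central memory, against 2.62 CPM in naive. The receptor segment Trbv12-1 made up 98.4% and 99.6% of Trbv counts in effector and central memory, against 7.13% in naive. The 8 natural killer cell markers summed to 1588 and 589 CPM in effector and central memory, against 253 CPM in naive, with Ncr1 at 0, 437 and 0 counts. Gzma made up 1084 CPM of the effector memory sum, and Nkg7 411 CPM there and 213 CPM in naive. By CPM, Gzma, Nkg7, Eomes and Fcer1g were highest in effector memory, whereas Ncr1, Klra8, Klrb1c and Tyrobp were highest in central memory. The part of these features in the differences below was not tested.

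Of the 6 sensor genes, 5 had lower levels in both memory libraries than in naive, by very different amounts. The median log2 ratio to naive over all genes compared was 0.06 in effector memory and 0.14 in central memory. Tlr7 was almost absent from the memory libraries. Zbp1 was at 23.1% of its naive level in effector memory and 44.9% in central memory, Ifih1 at 36.8% and 32.9%, and Ddx58 at 30.6% and 50.6%. Dhx58 differed less, and Eif2ak2 stood at about its naive level in effector memory. In bulk samples, fewer cells that express a gene and less RNA per cell cannot be told apart.

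**Figure D1:**
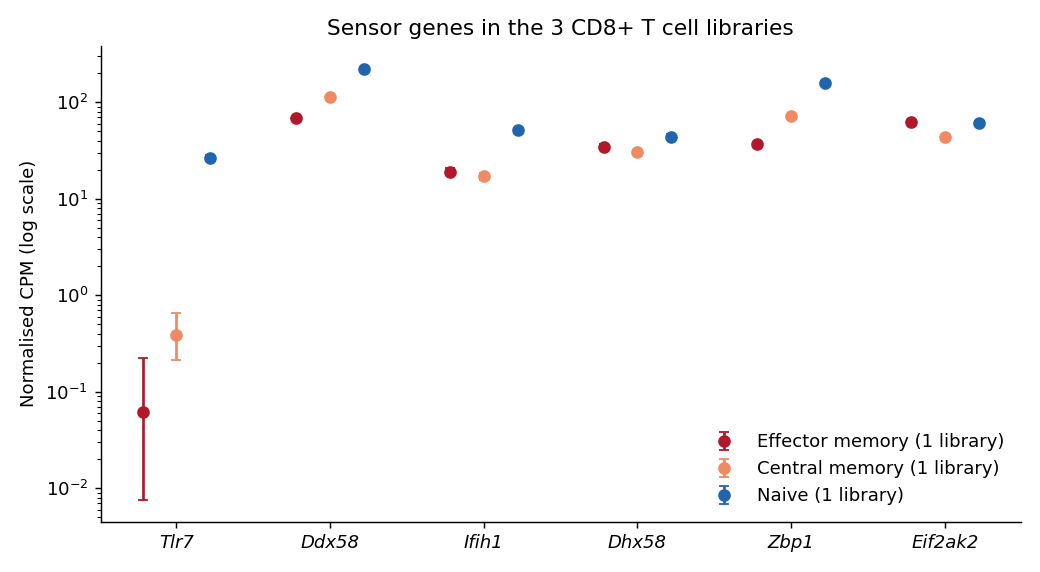
Normalised CPM (log axis) of the 6 sensor genes in the effector memory, central memory and naive libraries; each point is 1 library and the bars are exact 95% Poisson intervals, mostly smaller than the point. Tlr7 is near the bottom of the axis in both memory libraries (0.0625 and 0.391 CPM, against 26.4 CPM in naive), while Eif2ak2 stays between 43.8 and 62.8 CPM.

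Tlr7 (ENSMUSG00000044583.13, chromosome X, 167304929 to 167330558 on GRCm38, minus strand) had 2 counts in effector memory and 14 in central memory, against 734 in naive. These are 0.0625, 0.391 and 26.4 CPM. The naive library alone is high, and the effector memory level is under the floor of 3 counts. The central memory level was 67.5-fold lower than naive (interval 40.0 to 124), and the effector memory level 422-fold lower (interval 116 to 3490). Tlr7 took place 38 from the lowest ratio among 9737 genes in central memory against naive, and place 14 among 10087 genes in effector memory against naive. In effector memory Tlr7 entered at its 2 counts, while genes at 0 entered at 3 counts, so place 14 depends on that rule.

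B cells, macrophages and plasmacytoid dendritic cells are known to express Tlr7, so their markers stand beside it here. Of 8 B cell markers, 4 had a count in effector memory, 6 in central memory and 8 in naive, with summed levels of 3.16, 6.78 and 36.5 CPM. Ms4a1, a defining B cell gene, had no count in either memory library and stood at 3.41 CPM in naive. Per length, Tlr7 in naive was at 6.46 RPKM (CPM per kilobase of merged exons), beside 10.2 for Cd79b, 3.65 for Cd79a and 0.552 for Ms4a1. Only Cd79a and Cd79b of this list reached 5 CPM in any library. Cd79b had 70 counts in effector memory and 99 in central memory, against 405 in naive, and Cd79a had 20 and 118, against 148 in naive. The part of B cell transcripts in the Tlr7 level was not tested. Of 9 macrophage, monocyte and neutrophil markers, 3 had a count in effector memory, 3 in central memory and 6 in naive, at summed levels of 3.35, 0.223 and 3.09 CPM. Adgre1, which marks macrophages, was at 0 in all 3 libraries, and Csf1r had 0, 2 and 6 counts in effector memory, central memory and naive. Lyz2, a lysozyme of myeloid cells, had 0, 2 and 70 counts and made up 2.52 CPM of the naive sum. Cd14 had 97, 4 and 2 counts and made up 3.03 CPM of the effector memory sum. The part of these transcripts was not tested either. Of 9 dendritic cell markers, 6, 5 and 6 had a count in effector memory, central memory and naive, summing to 29.8, 7.01 and 289 CPM. In naive, 282 CPM of that sum were Ccr9, which naive CD8 T cells also express. Siglech, which marks plasmacytoid dendritic cells, and Flt3 were at 0 in all 3.

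The other endosomal receptors of nucleic acid were near the floor. Tlr3, Tlr9, Tlr8 and Tlr13 had no count in either memory library, against 20, 10, 2 and 2 counts in naive. The genes that act with TLR7 went both ways. Unc93b1, which carries TLR7 to the endosome, stood at 76.0 CPM in effector memory and 32.7 CPM in central memory, against 7.44 CPM in naive. It was 10.2-fold higher in effector memory (interval 8.87 to 11.8) and 4.4-fold higher in central memory (interval 3.79 to 5.12). Irf5, a transcription factor activated downstream of TLR7, was at 30.6 and 11 CPM in effector and central memory, against 1.01 CPM in naive. Its ratios to naive were 30.4 (interval 20.9 to 46.0) and 10.9 (interval 7.45 to 16.7). Irf7, the interferon-inducible factor of the same pathway, went the other way, at 29.6 and 45.6 CPM against 150.3 CPM in naive, 5.08-fold lower (interval 4.73 to 5.46) and 3.30-fold lower (interval 3.11 to 3.49). The adaptor Myd88 passed in neither direction, at 40.9 and 48.9 CPM in effector and central memory, against 51.4 CPM in naive. 5430427O19Rik, also on the list, was 19.3-fold higher in effector memory and 19.7-fold higher in central memory.

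A gene was called when its larger level reached 5 CPM, its levels differed at least 2-fold and the 95% counting interval left out 1. By this rule the list of endosomal receptors and adaptors, which leaves out Tlr7, had 5 of 13 measured members higher in effector memory than in naive and 1 lower, with 4 higher and 1 lower in central memory. Over all genes compared, 22.3% were called higher and 15.6% lower in effector memory against naive, and 11.2% higher and 5.12% lower in central memory against naive. The median log2 ratios were 0.07 and 0.23, beside 0.06 and 0.14 over all genes compared. A member that reached 5 CPM only in the library where it is high was compared only through that library. Its call is therefore no separate support. The same holds in the lists below, as for Mlkl, Nlrx1, Prkra and Adarb1 in effector memory against naive.

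Among the RIG-I-like receptors, Ddx58 and Ifih1 were lower in the memory libraries and Dhx58 was not called. Ddx58 (ENSMUSG00000040296.15, chromosome 4, 40203773 to 40239828, minus strand) had 2189 counts in effector memory and 4060 in central memory, against 6227 in naive, which are 68.4, 113 and 224 CPM. Effector memory is the lowest of the 3 and naive the highest. Ddx58 was 3.27-fold lower in effector memory than in naive (interval 3.11 to 3.43). In central memory it was 1.97-fold lower (interval 1.90 to 2.05), just short of the 2-fold limit. It passed that limit under each of 4 other scalings, at 2.05-fold to 2.32-fold lower.

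Ifih1 (ENSMUSG00000026896.14, chromosome 2, 62595798 to 62646255, minus strand) had 610 counts in effector memory and 611 in central memory, against 1441 in naive. These are 19.1, 17.1 and 51.8 CPM, so the 2 memory libraries stand together under naive. It was 2.72-fold lower in effector memory (interval 2.47 to 2.99) and 3.04-fold lower in central memory (interval 2.76 to 3.34). Between effector and central memory the ratio was 1.12, with an interval of 0.998 to 1.25.

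Dhx58 (ENSMUSG00000017830.15, chromosome 11, 100694884 to 100704271, minus strand) had 1115 counts in effector memory and 1086 in central memory, against 1222 in naive, which are 34.9, 30.3 and 43.9 CPM. Naive is again the highest, by a smaller margin. The ratio to naive was 0.794 in effector memory (interval 0.731 to 0.862) and 0.690 in central memory (interval 0.636 to 0.750). In the annotation the antisense gene Dhx58os overlaps Dhx58. Whether the counting used strand is not given in the sources used here, so reads of the pair may not be told apart.

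The makeup of the family therefore differed between libraries. Ddx58 made up 42.8% of the summed RPKM of the 3 helicases in effector memory and 58.6% in central memory, against 61.6% in naive. Dhx58 made up 46.9% and 33.8%, against 26.1% in naive, and Ifih1 10.3% and 7.62%, against 12% in naive. Such ratios inside a library do not depend on how libraries are scaled. Per length, Ddx58 stood to Dhx58 as 0.911 (interval 0.847 to 0.98) in effector memory and 1.74 (interval 1.62 to 1.86) in central memory, against 2.37 (interval 2.22 to 2.52) in naive. The ratio of Ifih1 to Dhx58 was 0.219 (interval 0.198 to 0.242) in effector memory and 0.225 (interval 0.204 to 0.249) in central memory, against 0.473 (interval 0.438 to 0.510) in naive. The 2 memory intervals overlap each other and lie below that of naive. Which helicase leads in effector memory rests on the length used: on the longest transcript Ddx58 stood at 17.7 RPKM and Dhx58 at 14.5 RPKM there.

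**Figure D2:**
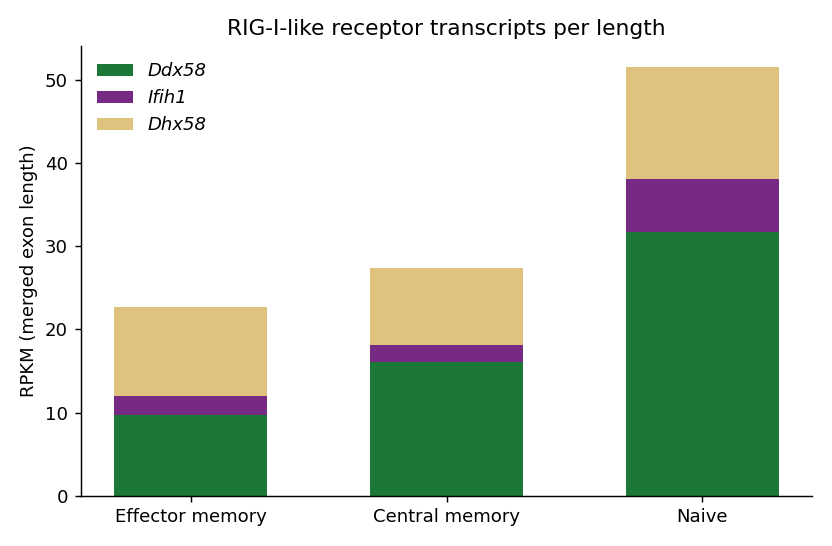
RPKM on merged exon length of Ddx58, Ifih1 and Dhx58, stacked, in the effector memory, central memory and naive libraries (1 library each, linear axis from 0). The sum is 22.7 and 27.4 RPKM in effector and central memory, against 51.5 RPKM in naive. Dhx58 stands at 10.7 and 9.27 RPKM, against 13.4 RPKM in naive.

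Of the partners of these receptors, most passed in neither direction. The adaptor Mavs stood at 45.4 and 55.0 CPM in effector and central memory, against 34.6 CPM in naive, with ratios of 1.31 (interval 1.21 to 1.43) and 1.59 (interval 1.47 to 1.72). Ikbke, a kinase that activates IRF3 and IRF7, was 4.17-fold lower in effector memory than in naive (interval 4.01 to 4.34) and 3.10-fold lower than in central memory (interval 2.98 to 3.23). Traf3, which links MAVS to such kinases, was 2.95-fold lower in effector memory than in naive (interval 2.78 to 3.13), and Nlrx1, a mitochondrial relative of the NOD-like receptors, 3.90-fold higher (interval 3.09 to 4.95). Trim14 differed mainly through central memory, at 35.1 CPM in effector memory, 104 in central memory and 52.1 in naive. In effector memory against naive 2 of 19 measured members were higher and 5 lower (median log2 ratio -0.33, beside 0.06 over all genes, of which 22.3% were higher and 15.6% lower). In central memory against naive 1 of 18 was higher and 1, Irf7, lower (median -0.06, beside 0.14 over all genes, of which 11.2% were higher and 5.12% lower).

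Zbp1 (ENSMUSG00000027514.14, chromosome 2, 173206612 to 173218923, minus strand) had 1183 counts in effector memory and 2571 in central memory, against 4452 in naive. The levels were 37.0, 71.8 and 160.0 CPM, with effector memory lowest, naive highest and central memory between them. It was 4.33-fold lower in effector memory than in naive (interval 4.06 to 4.62) and 2.23-fold lower in central memory (interval 2.12 to 2.34). Its ratio between effector and central memory was 0.515 (interval 0.481 to 0.552).

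Mlkl and Ripk3, by which ZBP1 can kill cells, were higher in effector memory than in naive. Mlkl, the pore-forming executioner of necroptosis, was at 55.5 CPM in effector memory and 11.9 CPM in central memory, against 0.467 CPM (13 counts) in naive. It was 119-fold higher in effector memory (interval 69.3 to 224) and 25.5-fold higher in central memory (interval 14.8 to 48.3). Ripk3, the kinase that phosphorylates MLKL, was 2.41-fold higher in effector memory than in naive (interval 2.24 to 2.60), while its central memory ratio to naive was 1.17 (interval 1.07 to 1.27). Tnfaip3, which encodes the ubiquitin-editing protein A20, was 3.34-fold lower in effector memory (interval 3.16 to 3.52) and 2.94-fold lower in central memory (interval 2.80 to 3.09). Casp6 was 2.38-fold lower in effector than in central memory (interval 2.09 to 2.71). Of 8 members of this list, 2 were higher and 1 lower in effector memory against naive, and 1 higher and 1 lower in central memory against naive. The medians were -0.11 and 0.07, beside 0.06 and 0.14 over all genes. The shares over all genes were 22.3% higher and 15.6% lower in effector memory, and 11.2% and 5.12% in central memory.

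**Figure D3:**
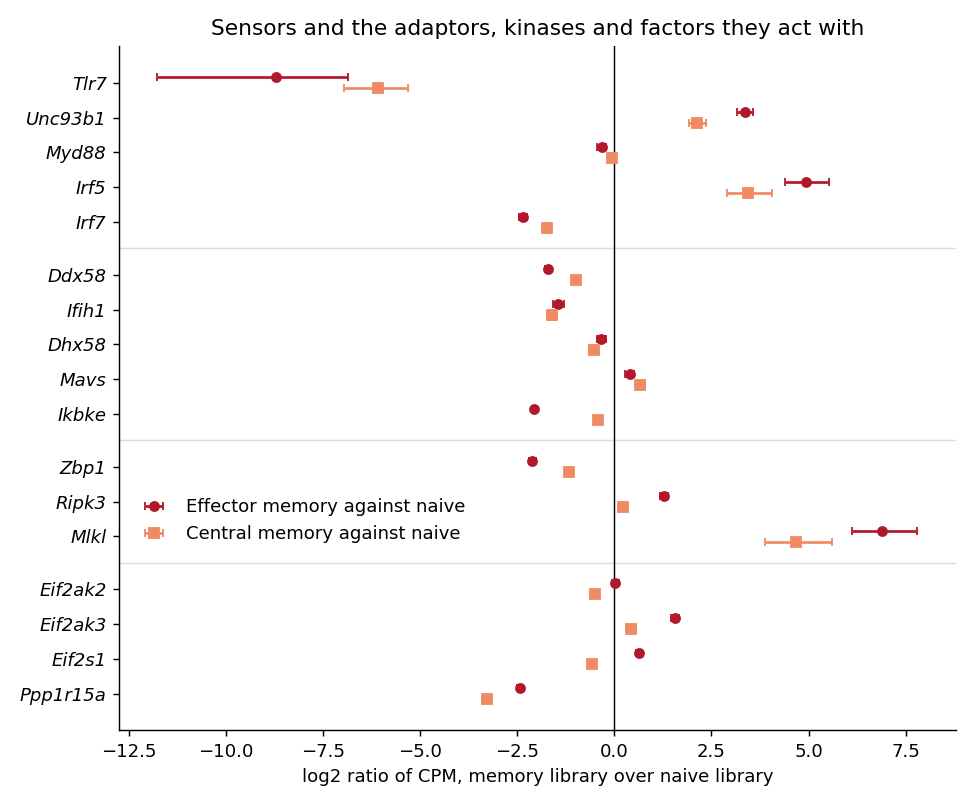
Log2 ratio of CPM of each memory library over the naive library for the sensor genes and some genes that act with them (circles, effector memory; squares, central memory; bars, 95% counting intervals; 1 library each). Tlr7 and Zbp1 lie left of 0 while Unc93b1, Irf5 and Mlkl lie right of it.

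Eif2ak2 (ENSMUSG00000024079.4, chromosome 17, 78852564 to 78882573, minus strand) had 2007 counts in effector memory and 1568 in central memory, against 1716 in naive, which are 62.8, 43.8 and 61.7 CPM. Central memory is the low one here, and effector memory and naive stand together. The ratio to naive was 1.02 in effector memory (interval 0.954 to 1.09) and 0.710 in central memory (interval 0.662 to 0.761). Its effector memory direction changed with the scaling, between log2 ratios of -0.08 and 0.06. Between effector and central memory the ratio was 1.43 (interval 1.34 to 1.53). In the annotation n-R5s29 and Gm26637 overlap Eif2ak2 on the opposite strand and were not analysed here.

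The balance between PKR and ZBP1 transcripts differed in all 3 libraries. The ratio per length of Zbp1 to Eif2ak2 was 0.854 (interval 0.794 to 0.918) in effector memory and 2.38 (interval 2.23 to 2.53) in central memory, against 3.76 (interval 3.55 to 3.98) in naive. None of these intervals overlap. Among the other kinases of eIF2alpha, Eif2ak3, which encodes PERK, the sensor of unfolded protein in the endoplasmic reticulum, was at 117 CPM in effector memory, against 53.8 CPM in central memory and 39.6 CPM in naive. It was 2.94-fold higher in effector memory than in naive (interval 2.75 to 3.15). Prkra, an activator of PKR, was 7.54-fold higher in effector memory (interval 5.68 to 10.2) and 3.86-fold higher in central memory (interval 2.87 to 5.27). Ppp1r15a, the stress-induced subunit that directs a phosphatase to eIF2alpha, was 5.39-fold lower in effector memory (interval 5.08 to 5.72) and 9.69-fold lower in central memory (interval 9.02 to 10.4). Eif2s1, the eIF2alpha subunit itself, was at 161 CPM in effector memory, 69.4 in central memory and 104 in naive. Of 19 members 5 were higher and 1 lower in effector memory against naive, and 1 higher and 1 lower in central memory against naive (medians 0.36 and 0.20, beside 0.06 and 0.14 over all genes). All genes gave 22.3% higher and 15.6% lower in effector memory, and 11.2% and 5.12% in central memory.

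Counted together, 3 of the 6 sensor genes were called lower in central memory than in naive (Tlr7, Ifih1 and Zbp1) and none higher. Of the 9737 genes compared there, 5.12% were called lower and 11.2% higher. In effector memory against naive 4 of 6 were called lower (Tlr7, Ddx58, Ifih1 and Zbp1) and none higher, where 15.6% of 10087 genes were called lower and 22.3% higher. Tlr7 reached 5 CPM only in naive, where it is high, so it entered both counts through that library alone. The median log2 ratios of the 6 were -1.07 and -1.58, beside 0.14 and 0.06 over all genes. The 2 comparisons share the naive library, so their likeness is not separate evidence. In effector memory against central memory 5 of 6 reached 5 CPM and none was called in either direction, where 14.8% of 9975 genes were called higher and 12.8% lower. There Ddx58 had a ratio of 0.604 (interval 0.573 to 0.636), Dhx58 one of 1.15 (interval 1.06 to 1.25), and Tlr7, at 2 against 14 counts, one of 0.16 (interval 0.0177 to 0.697). Zbp1, at 1.94-fold lower, lay just short of the limit and passed it with total counts as the scaling (2.01-fold lower).

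**Figure D4:**
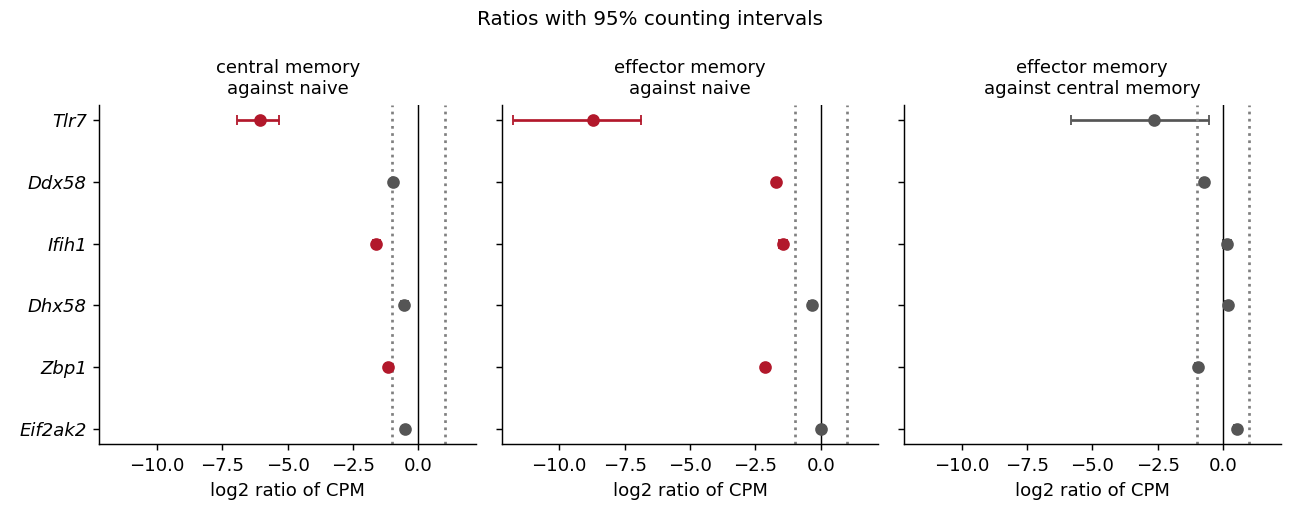
Log2 ratios of CPM with 95% counting intervals for the 6 sensor genes in the 3 comparisons (1 library a group); red points were called, dotted lines mark a ratio of 2 in either direction. The memory libraries differ from naive mostly to the left, and between effector and central memory no point is red.

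**Figure D5:**
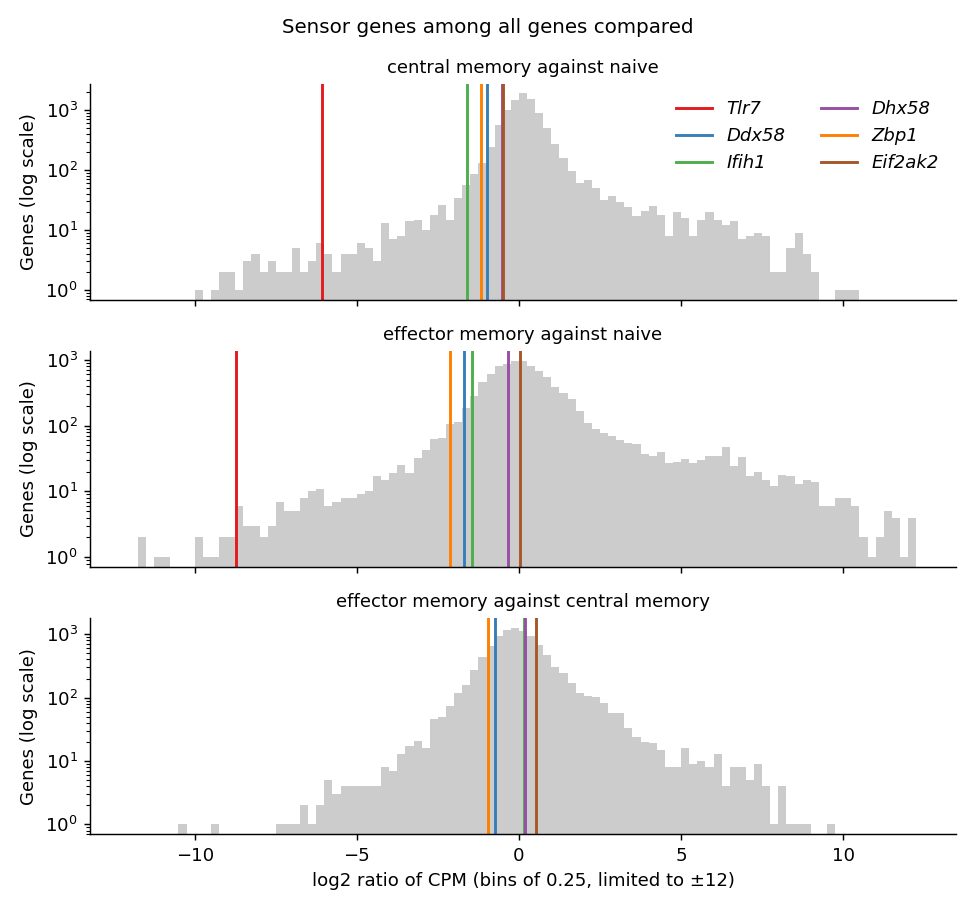
Histograms of the log2 ratio of all genes with 5 CPM in either library of each comparison (log count axis), with coloured lines at the sensor genes that reached that level. Tlr7 lies in the far left tail in both comparisons with naive, and Eif2ak2 and Dhx58 lie in the body of the distribution.

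Per length, the order of the 6 genes changed between libraries. In effector memory it ran Eif2ak2 (12.27 RPKM), Dhx58 (10.7), Zbp1 (10.5), Ddx58 (9.71), Ifih1 (2.34) and Tlr7 (0.0153). In central memory it ran Zbp1 (20.3), Ddx58 (16.1), Dhx58 (9.27), Eif2ak2 (8.56), Ifih1 (2.09) and Tlr7 (0.0957). In naive it ran Zbp1 (45.3), Ddx58 (31.7), Dhx58 (13.4), Eif2ak2 (12.1), Tlr7 (6.46) and Ifih1 (6.34). For 2 pairs of neighbours the interval of the ratio holds 1: Dhx58 and Zbp1 in effector memory (1.02, interval 0.936 to 1.10), and Tlr7 and Ifih1 in naive (1.02, interval 0.931 to 1.11). The order rests on the length used. On the longest transcript Ddx58 stood at 17.7 RPKM in effector memory, 29.3 in central memory and 57.8 in naive, first in each library.

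Among the cytosolic DNA sensors, to which ZBP1 was once assigned, and their STING pathway, more members were called lower in the memory libraries than higher. Tmem173, which encodes the adaptor STING, stood at 121 and 104 CPM in effector and central memory, against 123 CPM in naive. Pydc3, a member of the interferon-inducible p200 family, was 15.2-fold lower in effector memory than in naive (interval 13.7 to 17.0) and 5.62-fold lower in central memory (interval 5.26 to 6.01). Ifi203, of the same family, was 6.77-fold lower in effector memory (interval 6.51 to 7.05). Aim2, the DNA sensor of an inflammasome, was at 78.3 CPM in effector memory, 36.0 in central memory and 73.3 in naive. Of 11 measured members 5 were lower and 1 higher in effector memory against naive, and 3 lower and none higher in central memory against naive. The member called higher was Lrrc8c, a subunit of volume-regulated anion channels, at 2.46-fold (interval 2.38 to 2.56). The medians were -0.75 and -0.54, beside 0.06 and 0.14 over all genes. Of all genes, 15.6% were lower and 22.3% higher in effector memory, and 5.12% lower and 11.2% higher in central memory.

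Enzymes that edit or remove self nucleic acid went both ways, 3 higher and 2 lower of 17 in effector memory against naive, and 3 higher and none lower of 16 in central memory (medians -0.09 and 0.26, beside 0.06 and 0.14 over all genes). The background was 22.3% higher and 15.6% lower in effector memory, and 11.2% and 5.12% in central memory. Adar, which edits double-stranded RNA and so keeps it from MDA5, PKR and ZBP1, was 2.99-fold lower in effector memory (interval 2.86 to 3.13). Sidt1, of a family that transports double-stranded RNA, was 15.5-fold lower (interval 14.3 to 16.7). Higher in effector memory than in naive were Adarb1, another RNA-editing enzyme, at 15.4-fold (interval 9.82 to 25.5), and Rnaseh2b and Rnaseh2a, subunits of the RNase that cuts RNA paired with DNA, at 4.45-fold (interval 3.96 to 5.003) and 2.49-fold (interval 2.27 to 2.74). Samhd1, which breaks down deoxynucleotides, stood at 479.5 CPM in effector memory, 1180 in central memory and 510 in naive. Trex1, a DNA exonuclease, had no count in any library. Whether its transcript was absent or its reads were not assigned to it was not tested.

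The list of interferon receptors and STAT factors also holds inhibitors of their signalling, such as Usp18. Of its 16 members 1 was higher and 4 lower in effector memory against naive, and 2 higher and 2 lower in central memory against naive. The median log2 ratios were -0.65 and -0.24, beside 0.06 and 0.14 over all genes. Here too the shares over all genes were 22.3% higher and 15.6% lower in effector memory, and 11.2% and 5.12% in central memory. Usp18, an interferon-induced inhibitor of the type I receptor, was 34.4-fold lower in effector memory (interval 26.9 to 44.5) and 5.99-fold lower in central memory (interval 5.39 to 6.66). Irf9, the DNA-binding part of the factor that acts at the response element, was 2.41-fold lower in effector memory (interval 2.28 to 2.56). Ifngr2, a chain of the interferon gamma receptor, was 12.9-fold lower in effector memory (interval 10.5 to 15.8) and 18.1-fold lower in central memory (interval 14.5 to 22.9), while its partner chain Ifngr1 was 3.03-fold and 3.55-fold higher. Ifnar2, of the type I receptor, was 2.87-fold lower in effector than in central memory (interval 2.68 to 3.08).

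Counting each of the 111 partner genes of the 7 lists once, 102 were compared in effector memory against naive, of which 18.6% were higher and 17.6% lower, near the 22.3% and 15.6% of all genes. In central memory against naive 12 of 100 were higher and 8 lower, beside 11.2% and 5.12% of all genes.

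Genes whose levels over the 3 libraries ran most like those of a sensor were named by distance of centred log2 CPM among 9807 genes, over 3 points. Nearest to Tlr7 were Tmie, Lrrc75b and Nrp2 (distances 0.51, 0.71 and 0.74). Nearest to Ddx58 were Cacna2d2, Klhdc1 and Ttc3 (0.03 to 0.05), and to Zbp1 Phf11c, Znrf3 and Fam208a (0.04 to 0.07). Ifih1 had Zfp946, Sall2 and Rasa2 (0.08 to 0.14), Dhx58 had Fbxo28, Ppp4r3a and Nus1 (0.02 to 0.03), and Eif2ak2 had Actr2, Gbp4 and Pank3 (0.02 to 0.03). With 3 points many genes run alike, so this likeness is a description only.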

How the data were processed

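The authors deposited whole-number read counts per gene symbol, 1 column per group. Columns TN, TCM and TEM were matched to the naive, central memory and effector memory samples by abbreviation. Per the submitters' processing notes, CASAVA, HISAT2 2.0.5, featureCounts 1.5.0-p3 and mm10 were used; the sources used here do not give annotation, strand or multi-mapping settings.

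Counts were scaled to CPM with trimmed mean of M values factors (edgeR 4.0.16, R 4.3.3; 0.967 effector memory, 0.999 central memory, 1.03 naive). Ratios carry 95% exact (Clopper-Pearson) counting intervals. Calls needed a larger level of 5 CPM, a difference of at least 2-fold and an interval that left out 1, a rule of size. A library at 0 entered ratios at 3 counts. RPKM used merged exon lengths of GENCODE M21, found for 98.7% of gene names. DESeq2 1.42.0 served a scaling alternative; Python 3.11.15 did the rest.

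The 6 genes and all lists were chosen with earlier results of these data known. Named were all 6, Cd8a, Cd3e, Cd44, Mavs, Myd88, Tmem173, Ripk3, Eif2s1, up to 4 called members per list and comparison with the largest ratios (some are left out), and the 3 genes nearest in pattern, taken at log2(CPM + 0.25) without unnamed models. Mki67, Trbv12-1, Trex1, Tlr3, Tlr8, Tlr9, Tlr13, Lrrc8c, Rnaseh2a in effector memory and markers under 1 CPM were chosen after their values were seen. Some marker genes are not reported here.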

Additional observations from a re-analysis of the deposited data

How the results depend on the processing

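No paired analysis was possible because each group has 1 library. Across 4 other scalings (total counts, DESeq2 size factors, upper quartile factors and summed CD3 chain counts), 69 of 72 log2 ratios of the sensor genes kept their direction; the other 3 were Eif2ak2 in effector memory against naive, with log2 ratios from -0.08 to 0.06. With a ratio of at least 4, 1 sensor gene was called in central memory against naive (Tlr7) and 2 in effector memory against naive (Tlr7 and Zbp1). In effector against central memory, 1 was called with total counts (Zbp1), 1 with no minimum level (Tlr7) and 2 at a ratio of at least 1.5 (Ddx58 and Zbp1). The share of all genes called under these altered settings is not given here, so these counts cannot be set against a background. CD3 chain scaling put the median log2 ratio of all genes at -0.10 in central memory against naive, beside 0.14, and 52.7% of its calls were higher, beside 68.6%. In effector against central memory it gave a median of 0.22, beside -0.06, and 71.7% higher, beside 53.7%. Of 378 list counts under an alternative, 82 moved by over 1.5 times. Lengths of the longest transcript moved 15 of 18 RPKM values past their counting interval. With a pseudocount of 1 CPM, 1 of the 3 nearest genes was shared for each of Tlr7, Ddx58 and Eif2ak2. At 2 and 14 counts, depth limits the size of the Tlr7 ratios.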
